A study of Mus musculus with 30 samples.

Results

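The 10 genes described here belong to the p53, Ink4 and Rb pathways: Trp53, Mdm2, Mdm4, Cdkn1a, Ccng1, Trp53inp1, Cdkn2a, Cdkn2b, Rb1 and Myc. They were taken by gene symbol from the 48440 genes of the count table, and all 10 were among the 16862 genes that passed the filter on low counts. RNA was sequenced from 30 fibrosarcomas, each grown in a C57BL/6 mouse from 1 of 5 cell lines derived from tumors induced with the carcinogen MCA (3-methylcholanthrene). MCA-943 (n = 4) and MCA-969 (n = 8) were non-sensitive to NK1.1+ cells, which include NK cells and ILC1, and MCA-948 (n = 8), MCA-970 (n = 6) and MCA-972 (n = 4) were sensitive. The strain label is Ncr1Cre for MCA-943 and Ncr1Cre R26DTA for the other 4 lines, a genotype in which a toxin gene removes cells that express Ncr1 (NKp46). The labels name C57BL/6 mice as those in which the tumors grew, and do not say what the strain label refers to. Strain and line cannot be told apart for MCA-943. Each line came from a single primary tumor, so the tumors of a line are replicates of that line and not of a genotype or of a sensitivity. CD45+ hematopoietic cells were removed with beads before RNA extraction. Of MCA-969, the labels of W-1D and W-2D state the opposite sensitivity, and both were kept with their line. The titles of all tumors but 1 of MCA-972 carry a letter, W or a, whose meaning is not given. No label names a sequencing batch, but the library numbers fall into 3 unbroken or nearly unbroken blocks, called runs 1 to 3 here, and that these were batches is inferred.

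The tumors had totals of 27745104 to 46537062 counts in genes. Levels are given as CPM, counts scaled to a common library size after TMM normalization, with the SD over tumors. Of the 8 markers of fibroblasts and sarcomas, such as Col1a1 and Vim, all 8 were detected in every line, with a summed level from 15770 CPM to 81910 CPM per tumor, lowest in MCA-948 and MCA-969 (at most 37480 CPM). The sum of 10 leukocyte markers was between 6.51 CPM and 290.1 CPM per tumor, and that of 4 endothelial markers between 15.1 CPM and 425.2 CPM, highest in the 6 tumors of MCA-970 (247.5 CPM to 425.2 CPM). Summed keratinocyte markers reached at most 8.73 CPM, and summed skeletal muscle markers at most 12.9 CPM. RNA of host cells that remain in a bulk tumor is counted together with that of the tumor cells, so fewer cells of a type and less RNA per cell cannot be told apart.

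The p53 protein is a transcription factor that accumulates after DNA damage or oncogene activation and switches on genes that arrest the cell cycle, repair DNA or start apoptosis. Mdm2 marks p53 for degradation and Mdm4 blocks its activity, and p53 in turn switches on Mdm2. The Cdkn2a locus encodes an inhibitor of the D cyclin kinases, p16Ink4a, and, from another first exon and another reading frame, Arf, which holds Mdm2 away from p53. Cdkn2b encodes the related inhibitor p15Ink4b. These inhibitors keep the Rb protein in the form that binds E2F factors and silences the genes of DNA replication, whereas Myc drives ribosome production and cell growth. Fibroblast tumors commonly carry lesions in one or more of these genes.

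All 10 genes differed among the 5 lines (edgeR quasi-likelihood F test, adjusted p under 0.05), as did 94.1% of all genes tested. A gene was called between a pair of lines when its Benjamini-Hochberg adjusted p was under 0.05 and its fold change at least 1 on the log2 scale. Over the 10 pairs of lines, 32 of 100 tests of these genes were called, against 24.5% over all genes. Without the fold threshold 67 of 100 passed, against 60.0%. The median range of the 5 line means was 1.79 on the log2 scale for the 10 genes and 1.15 for all genes. These shares are close to the background, and the pattern lay in a few genes with very large differences: Trp53 (range 6.32), Cdkn2a (5.48), Cdkn2b (5.45) and Myc (3.13). Rb1 (0.81), Mdm2 (0.94) and Mdm4 (0.60) were called in no pair.

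By pair of lines, 6 of the 10 genes were called for MCA-943 against MCA-948, where 29.0% of all genes were called. Between MCA-943 and MCA-970, 4 genes were called (all genes 27.3%), and between MCA-943 and MCA-972, 2 genes (25.6%). MCA-969 differed from MCA-948 in 3 genes (20.8%), from MCA-970 in 3 (21.4%) and from MCA-972 in 2 (20.6%). The non-sensitive lines MCA-943 and MCA-969 differed from each other in 3 genes (27.0%). Among the sensitive lines, 4 genes were called between MCA-970 and MCA-948 (29.4%), 2 between MCA-970 and MCA-972 (17.6%) and 3 between MCA-972 and MCA-948 (26.8%). MCA-943 took part in all 8 calls of Cdkn2a and Cdkn2b, and MCA-948 and MCA-970 each in 4 of the 7 calls of Trp53. The pairs share lines, so their calls are not independent of each other.

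**Figure D1:**
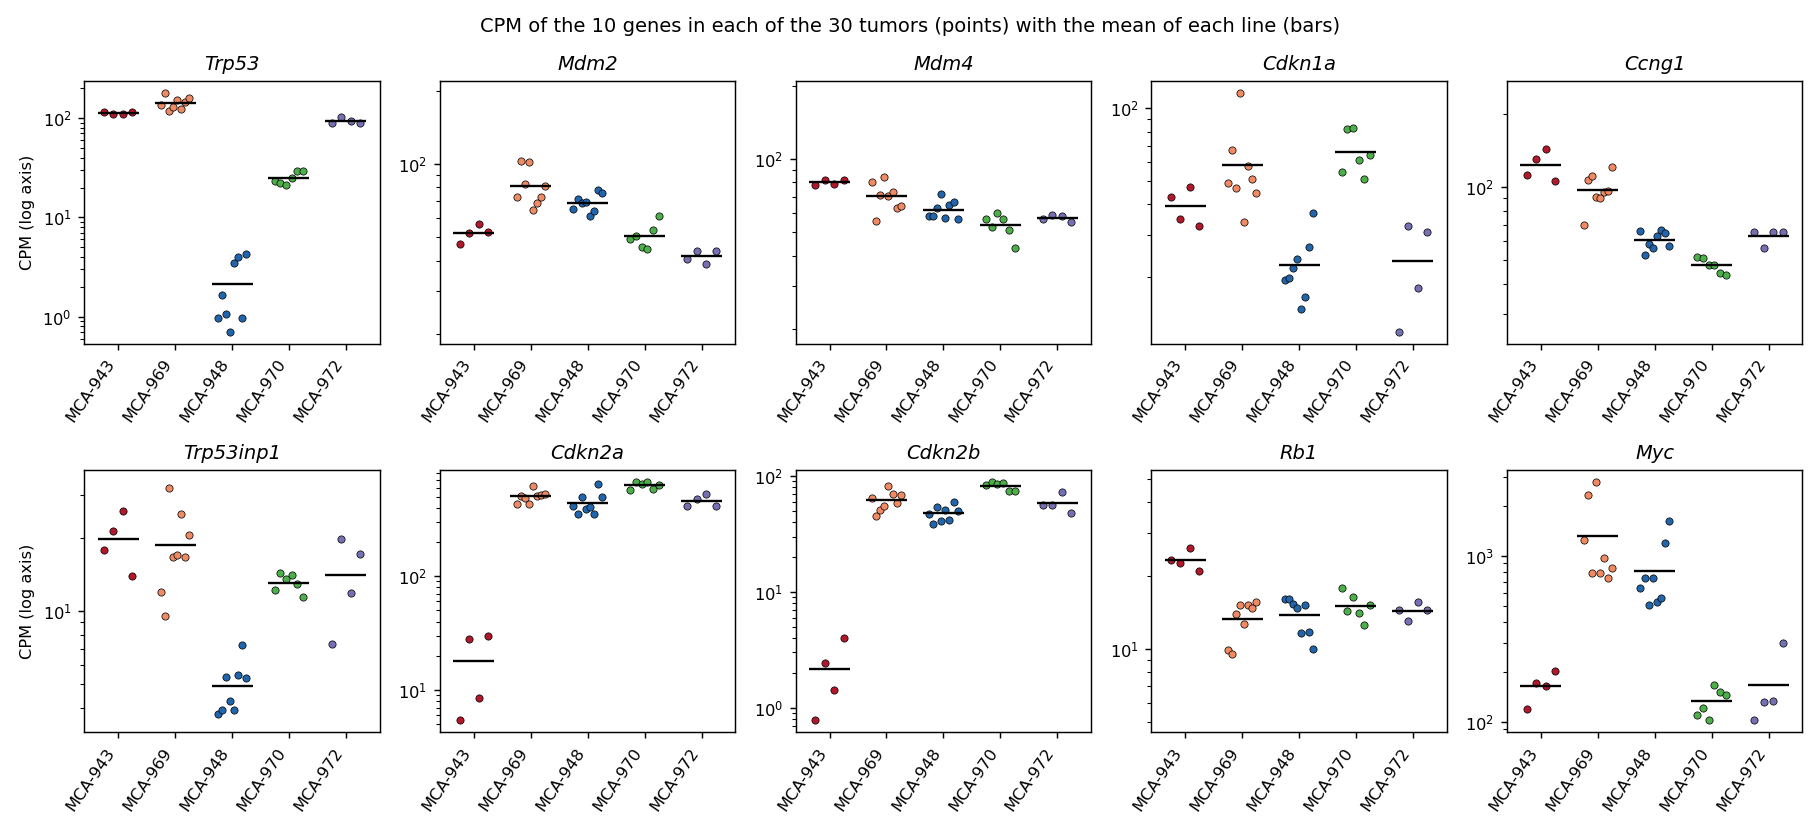
CPM (log axis) of the 10 genes in each tumor, 1 point per tumor, by line on the horizontal axis, with horizontal bars at the mean of each line (MCA-943 n = 4, MCA-969 n = 8, MCA-948 n = 8, MCA-970 n = 6, MCA-972 n = 4). Trp53 was lowest in all 8 tumors of MCA-948 (at most 4.32 CPM), and Cdkn2a and Cdkn2b were lowest in all 4 tumors of MCA-943 (at most 30.02 CPM and 3.97 CPM).

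Trp53 (chr11:69580359-69591873 in GRCm38, plus strand) was the gene with the widest spread, its highest tumor 252-fold above its lowest. Its levels in MCA-948 were 0.71, 0.965, 0.973, 1.06, 1.65, 3.49, 3.99 and 4.32 CPM. Those of MCA-970 ran from 21.05 to 29.6 CPM with a median of 23.9 CPM. These 2 sensitive lines stood below the other 3, and their ranges did not overlap with each other. In MCA-972 the 4 tumors had 88.7, 89.0, 93.8 and 102.8 CPM, and in MCA-943 they had 109.0, 109.3, 114.6 and 115.6 CPM. The 8 tumors of MCA-969 ran from 116.7 to 178.9 CPM with a median of 140.7 CPM. The ranges of the 5 lines were thus ordered with no overlap, from MCA-948 through MCA-970, MCA-972 and MCA-943 to MCA-969. The top neighbours in this order differed little: MCA-969 was above MCA-943 by 0.35 ± 0.27 (SE) on the log2 scale (edgeR adjusted p = 0.279), and MCA-943 above MCA-972 by 0.26 ± 0.31 (adjusted p = 0.495). MCA-972 was above MCA-970 by 1.90 ± 0.28 (adjusted p = 3.19e-06), and MCA-970 above MCA-948 by 3.54 ± 0.27 (adjusted p = 2.89e-12). The largest difference was that of MCA-969 over MCA-948, 6.05 ± 0.28 (adjusted p = 2.38e-16). Between tumors that share a run, MCA-948 was again the lower line. MCA-943 was above it by 5.76 in run 3, and MCA-969 by 5.91 and MCA-970 by 3.26 in run 2 (edgeR adjusted p of at most 3.49e-04). Of the neighbours in the order above, only MCA-970 and MCA-948 share a run. The full order could therefore not be followed within runs.

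Of the 10 genes, 7 were matched in the RefSeq table of promoters, and Trp53inp1, Rb1 and Myc were not. The 250 bases before the start of Trp53, the gene whose level separated the lines most, are shown from this GRCm38.p6 table (chr11:69580109-69580358, plus strand). Capitals mark TATAAA on either strand, which 12.4% of the 32851 promoters of this table hold. No match to GGGCGG (32.7% of promoters), to CACGTG (6.02%), the E-box that Myc binds, or to 1 of the 4 E2F motifs TTTGGCGC, TTTCCCGC, TTTCGCGC and TTTGCCGC (1.86%) lay in this window. All motifs were searched on both strands.
Trp53: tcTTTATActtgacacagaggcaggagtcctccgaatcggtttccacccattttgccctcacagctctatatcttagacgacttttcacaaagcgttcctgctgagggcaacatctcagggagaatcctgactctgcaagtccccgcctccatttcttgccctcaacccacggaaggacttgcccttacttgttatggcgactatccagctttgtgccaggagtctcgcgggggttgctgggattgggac

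One close neighbour of Trp53 was as low in the same line. Of the 85 genes past the filter within 1 Mb of Trp53, the median stood 0.15 below its own mean over the 5 lines in MCA-948, against a deviation of -4.37 for Trp53. Sat2, which encodes an acetyltransferase and whose midpoint lies 36.8 kb from that of Trp53, deviated by -4.08, the lowest of these 85 genes. Its mean was 0.0555 CPM in MCA-948 (at most 0.229 CPM in a tumor) and between 1.87 and 4.17 CPM in the other lines. Atp1b2, a subunit of the sodium pump located between them at 16.7 kb, deviated by -1.34, with 0.563 ± 0.741 CPM in MCA-948 and 0.428 ± 0.202 CPM in MCA-972. Wrap53, a gene of telomerase assembly 15.1 kb away on the other side of Trp53, had 10.9 to 12.8 CPM in the tumors of MCA-948 and means of 10.01 to 15.9 CPM in the other lines. Sat2, Atp1b2 and Wrap53 were named after their values had been seen. In MCA-970, where Trp53 was at 25 CPM, Sat2 was at 3.63 ± 1.07 CPM and the neighbours' median deviated by 0.33.

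**Figure D2:**
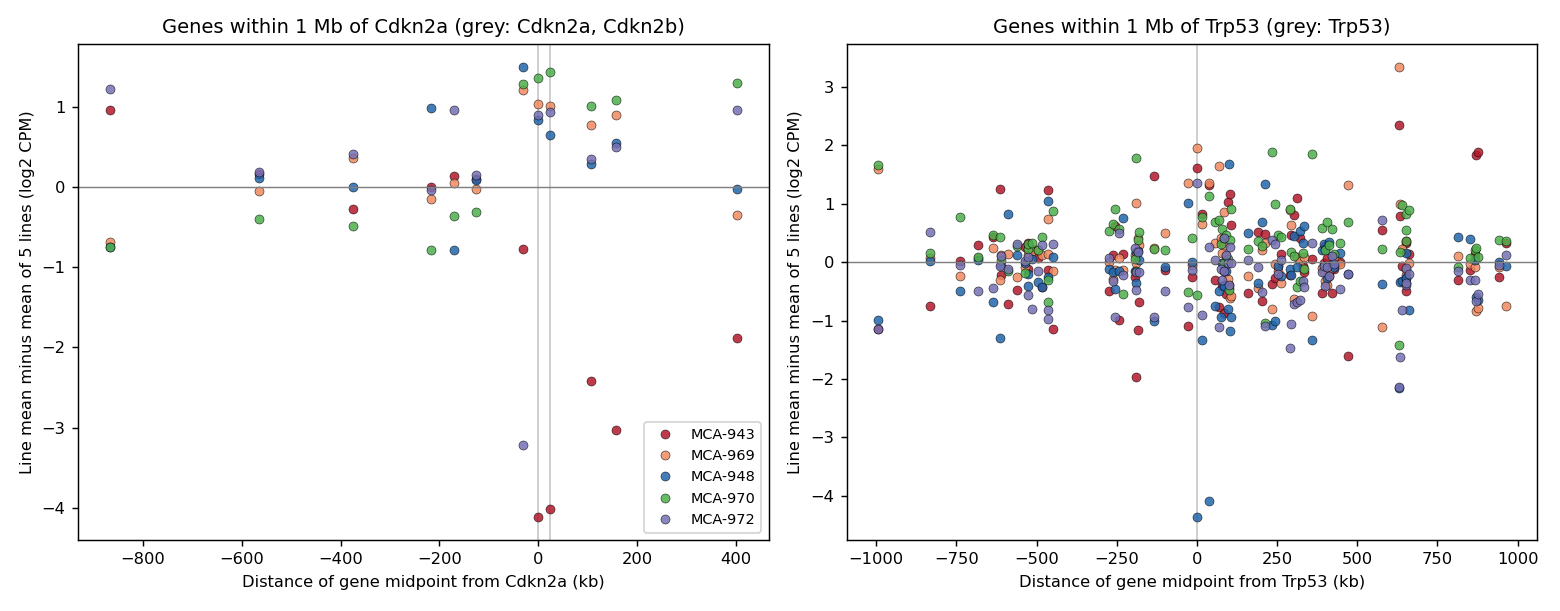
Deviation of each line's mean from the mean of the 5 lines (log2 CPM, vertical axis) for genes past the filter within 1 Mb of Cdkn2a (left) and of Trp53 (right), plotted against the distance of gene midpoints in kb, 1 colour per line. In MCA-943, Cdkn2a and Cdkn2b lie at -4.12 and -4.01 and Gm12609, Gm12610 and Dmrta1 at -1.88 or below, and in MCA-948, Trp53 at -4.37 and Sat2 at -4.08 lie below the other genes, the next being Slc16a11 at -2.16, which was named after its value had been seen.

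Within MCA-948, the 3 tumors with the most Trp53 were also those with the most endothelial transcripts. In a-1G, a-2D and a-R, with 3.49, 3.99 and 4.32 CPM of Trp53, the 4 endothelial markers summed to 162.2, 197.0 and 296.9 CPM. In the other 5 tumors, with 0.71 to 1.65 CPM of Trp53, they summed to 15.1 to 89.5 CPM. The leukocyte markers did not follow the same order, since the sum was 127.1, 50.3 and 21.4 CPM in those 3 tumors and 36.3 to 106.3 CPM in the other 5. The part of host RNA in the Trp53 level of MCA-948, or of MCA-970, the line with the most endothelial transcripts, was not tested. With the summed endothelial or leukocyte level as a covariate, every call of Trp53 was kept. Of the 32 calls, the endothelial covariate lost Ccng1 for MCA-969 over MCA-970 (0.97) and the leukocyte covariate none.

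**Figure D3:**
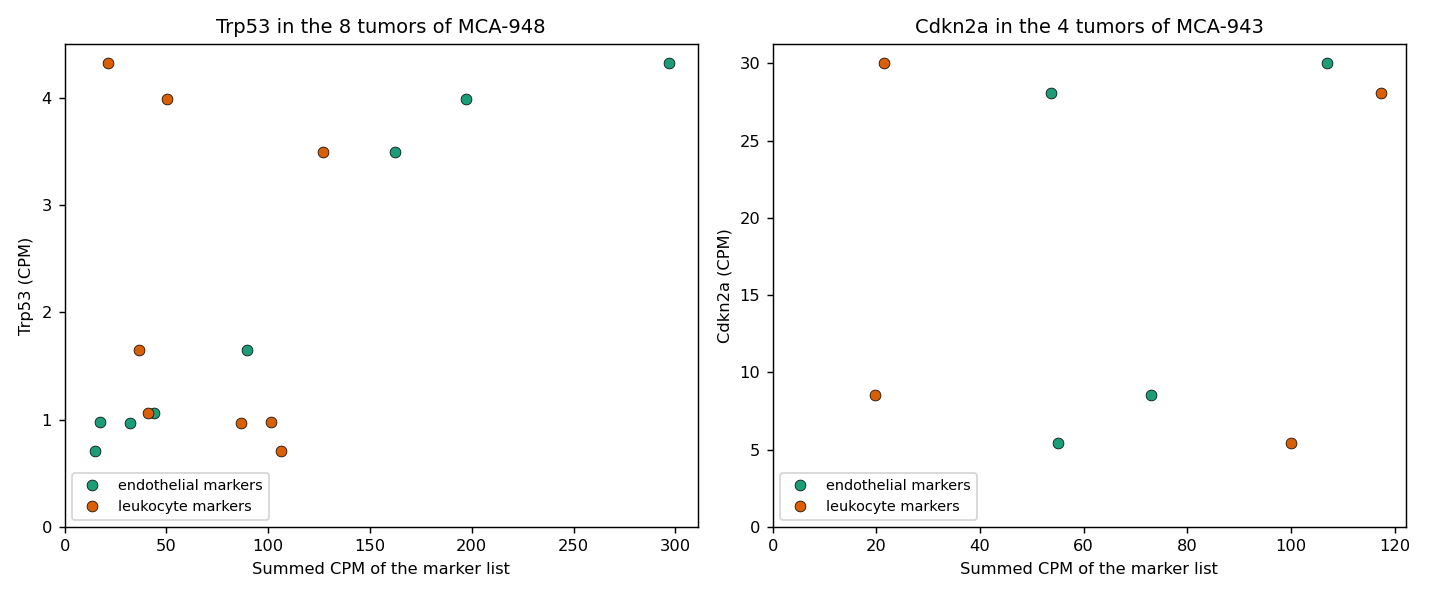
Level of Trp53 in the 8 tumors of MCA-948 (left) and of Cdkn2a in the 4 tumors of MCA-943 (right), in CPM, against the summed CPM of 4 endothelial or 10 leukocyte markers in the same tumor, 1 point per tumor and marker list. The 3 MCA-948 tumors with over 3 CPM of Trp53 hold 162.2 to 296.9 CPM of endothelial markers, more than the other 5. In MCA-943, a-R has the most Cdkn2a (30.02 CPM) and the most endothelial markers (107.0 CPM), and the remaining tumors do not follow the same order.

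Mdm2 and Mdm4, the inhibitors of p53, varied far less than Trp53 itself. Mdm2 (chr10:117688875-117710758, minus strand) was highest in MCA-969, at 81.0 ± 14.5 CPM (SD, n = 8), and in MCA-948, at 69.2 ± 5.8 CPM. It was lowest in MCA-972, at 41.7 ± 2.56 CPM, with MCA-943 at 51.9 ± 4.01 CPM and MCA-970 at 50.7 ± 5.89 CPM between them. MCA-948, the line with almost no Trp53 reads, was therefore the second highest in Mdm2. Of the 10 pairs, 9 reached an adjusted p under 0.05, the largest difference being 0.96 ± 0.11 for MCA-969 over MCA-972 (adjusted p = 1.99e-08), just under the fold threshold. Without tumor a-1D of MCA-969 that difference was 1.01 and was called.

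Mdm4 (chr1:132959484-133030561, minus strand) was highest in MCA-943, at 78.2, 79.2, 81.5 and 82.2 CPM. It ran from 55.5 to 84.4 CPM (median 70.5) in MCA-969, from 56.6 to 71.4 CPM (median 60.5) in MCA-948 and from 43.1 to 59.7 CPM (median 54.6) in MCA-970. In MCA-972 the 4 tumors had between 54.8 and 58.6 CPM. The means of both non-sensitive lines were above those of the 3 sensitive lines, but the tumors of MCA-969 overlapped with all 3 of them. Across pairs, 7 reached an adjusted p under 0.05, up to 0.59 ± 0.09 for MCA-943 over MCA-970 (adjusted p = 3.08e-06).

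Among 18 other regulators and relatives of p53, such as the damage kinases Atm and Atr and the ubiquitin ligases Cop1 and Rchy1, 17 passed the filter and Trp73 did not. These 17 gave 19 calls in 170 tests (11.2%, against 24.5% of all genes), from 5 genes, and 12 genes were called in no pair. Trp63, the p53 relative of stratified epithelia and also 1 of the keratinocyte markers, was at 1.14 CPM in MCA-943 and 0.805 CPM in MCA-972 but at 0.108 to 0.242 CPM in the other lines. Cbx7, a Polycomb protein that represses the Ink4 locus, was highest in MCA-943 (22.5 CPM), with MCA-948 close to it (20.4 CPM). This pair of lines was not called for Cbx7. It was lowest in MCA-972 (3.77 CPM), a difference of 2.57 on the log2 scale from MCA-943. Atm had 80.2 CPM in MCA-948 and 22.6 CPM in MCA-970, and Hipk2, a kinase that phosphorylates p53, had 14.3 CPM in MCA-943 and 33.6 CPM in MCA-972. Their order among lines was not that of Trp53.

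Cdkn1a, Ccng1 and Trp53inp1 are direct targets of p53. Cdkn1a (chr17:29090976-29100727, plus strand) encodes the cell cycle inhibitor p21. It was highest in MCA-970, from 50.8 to 83.0 CPM (median 62.3), and in MCA-969, from 33.9 to 115.5 CPM (median 50.2). The 4 tumors of MCA-943 had 32.6, 34.8, 43.0 and 47.2 CPM, those of MCA-972 had 11.9, 18, 30.9 and 32.5 CPM, and MCA-948 ran from 14.8 to 36.7 CPM (median 20.8). The line with the second lowest Trp53, MCA-970, had the highest mean of Cdkn1a, 1.55 ± 0.24 above MCA-948 (edgeR adjusted p = 1.30e-06) and 1.5 ± 0.30 above MCA-972 (adjusted p = 1.44e-04). It was not called against MCA-969, the line with the most Trp53 (0.18 ± 0.23, edgeR adjusted p = 0.525), and the tumors of these lines overlapped. MCA-969 was above MCA-948 by 1.38 ± 0.22 (adjusted p = 4.87e-06) and above MCA-972 by 1.32 ± 0.28 (adjusted p = 2.87e-04). MCA-972, with 93.6 CPM of Trp53, and MCA-948, with 2.15 CPM, differed in Cdkn1a by 0.06 ± 0.27 (adjusted p = 0.867). With the run as a covariate the difference of MCA-969 over MCA-948 was 0.88 (adjusted p = 0.126) and was lost, and between the 2 tumors of each line in run 2 it was 0.87 (adjusted p = 0.0460).

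The 250 bases before the first RefSeq start of Cdkn1a (chr17:29090729-29090978, plus strand) hold a match to the pattern searched for a p53 response element. The other promoters of these genes in the table held no match. Capitals mark the match, a pair of consensus half-sites with at most 13 bases between them, which 21 of the 32851 promoters hold (0.0639%). The capitals show where the pattern matched, and which bases p53 binds was not tested. Of the 26 other p53 target genes described here, 20 have promoters in the table, and none of their 26 windows held it. With a pattern this rare and windows of 250 bases, its absence does not show that these genes lack p53 sites. Sequence outside the windows was not searched.
Cdkn1a: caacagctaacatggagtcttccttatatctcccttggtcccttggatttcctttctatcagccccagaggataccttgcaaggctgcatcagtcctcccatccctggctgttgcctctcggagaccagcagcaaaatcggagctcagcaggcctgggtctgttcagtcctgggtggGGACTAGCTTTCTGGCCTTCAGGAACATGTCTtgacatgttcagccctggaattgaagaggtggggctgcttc

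Ccng1 (chr11:40748552-40755311, minus strand), cyclin G1, was highest in MCA-943, at 105.8, 112.7, 130.2 and 143.2 CPM. In MCA-969 it ran from 69.9 to 121.1 CPM (median 95.9). The 3 sensitive lines were lower, at 60.6 ± 5.14 CPM in MCA-948, 63.1 ± 4.59 CPM in MCA-972 and 47.7 ± 3.28 CPM in MCA-970, and no tumor of theirs overlapped with either non-sensitive line. MCA-943 was above MCA-970 by 1.37 ± 0.11 (adjusted p = 6.13e-12), above MCA-948 by 1.02 ± 0.10 (adjusted p = 2.81e-10) and above MCA-972 by 0.96 ± 0.12 (adjusted p = 6.47e-08), the last not called. MCA-969 was above MCA-970 by 1.04 ± 0.09 (adjusted p = 1.11e-10). These folds lie at the threshold. The call of MCA-943 over MCA-948 was lost without a-1G (0.87) or a-1D (0.99) of MCA-943, W-1G of MCA-948 (0.99) or a-1G of MCA-972 (0.96), and that of MCA-969 over MCA-970 without a-R of MCA-969 (0.99). That of MCA-943 over MCA-972 was gained without a-R of MCA-943 (1.03).

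Trp53inp1 (chr4:11156431-11174379, plus strand), a nuclear protein of the p53 stress response, was also lowest in MCA-948. In MCA-948 it ran from 3.77 to 7.27 CPM (median 4.82). It was at 13.9, 17.8, 21.4 and 25.8 CPM in MCA-943, at 7.35, 11.9, 17.2 and 19.8 CPM in MCA-972, from 9.53 to 32.2 CPM (median 16.9) in MCA-969 and from 11.5 to 14.3 CPM (median 13.3) in MCA-970. Every tumor of MCA-948 was below every other tumor. The 4 other lines were above MCA-948 by 2.00 ± 0.24 (MCA-943), 1.93 ± 0.21 (MCA-969), 1.52 ± 0.24 (MCA-972) and 1.42 ± 0.22 (MCA-970), with adjusted p of at most 3.60e-06. No other pair was called. With the run as a covariate MCA-969 was above MCA-948 by 0.77 (adjusted p = 0.0925) and MCA-972 by 0.17 (adjusted p = 0.796), and both calls were lost. MCA-948 and MCA-972 share no run, and within run 2 the 2 tumors of MCA-969 were above the 2 of MCA-948 by 0.77 (adjusted p = 0.0198).

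The other p53 targets did not share 1 order of lines. All 26 passed the filter and gave 83 calls in 260 tests (31.9%, against 24.5% of all genes), from 19 of the 26 genes. In MCA-948, 7 of 26 (26.9%) had their lowest mean, against 24.3% of all genes, and their median deviation from the mean of the lines was -0.03. In MCA-943, 9 of 26 (34.6%) had their highest mean, against 26.5% of all genes, with a median deviation of 0.29, and in MCA-972 10 of 26 had their lowest (38.5%, against 17.9%). Btg2, an antiproliferative gene, was also lowest in MCA-948, with 55.3 CPM in MCA-948 and 236.6 to 472.5 CPM in the other lines, each of which was called against MCA-948. Phlda3, which blocks Akt at the membrane, was also called against MCA-948 in all 4 lines and was highest in MCA-943 (61.4 CPM, with 5.27 CPM in MCA-948). Ddit4l, a gene of the mTOR stress response, was highest in MCA-972 (23.3 CPM) and at 0.389 CPM in MCA-948 and 0.435 CPM in MCA-969. Perp, a gene of apoptosis and desmosomes, reached 2.02 CPM in MCA-969 and 0.324 CPM in MCA-972 and at most 0.0426 CPM elsewhere. Between MCA-972 and MCA-948, 13 of the 26 targets were called (all genes 26.8%), 6 of them higher in MCA-972 and 7 lower.

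**Figure D4:**
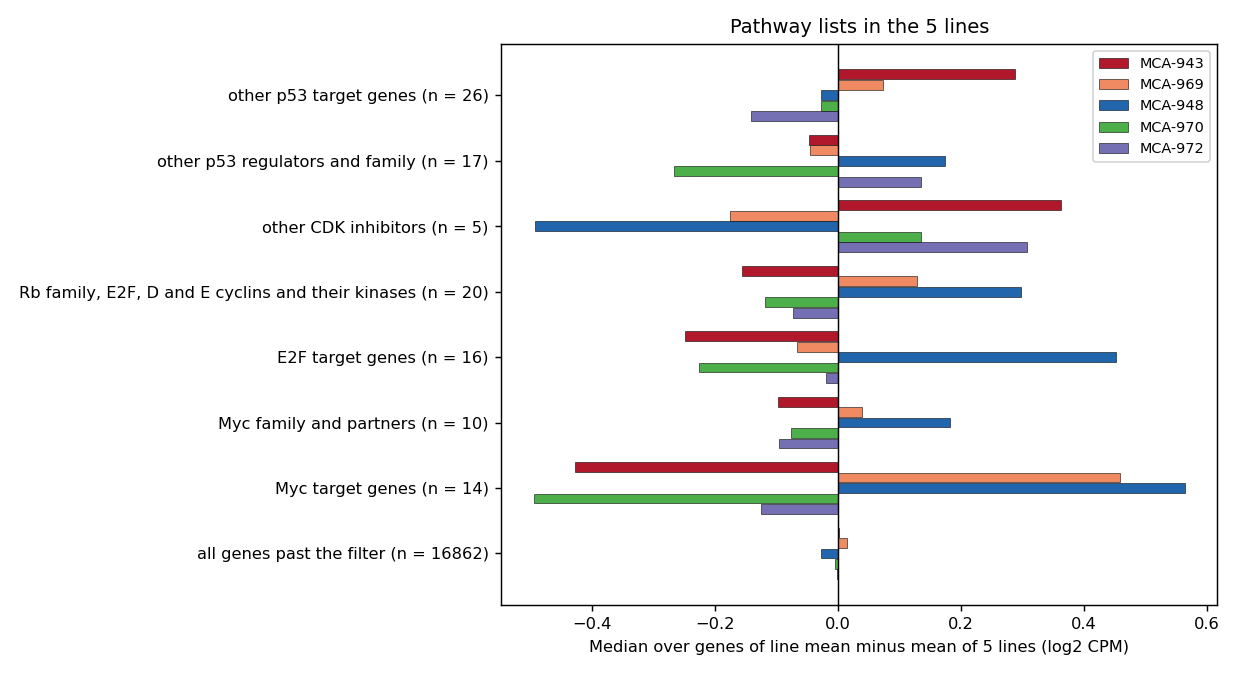
Median over the genes of each pathway list of the deviation of a line's mean from the mean of the 5 lines (log2 CPM, horizontal axis), 1 bar per line, with the number of genes past the filter. E2F and Myc target genes had positive medians in MCA-948 (0.45 and 0.56), Myc target genes also in MCA-969 (0.46), and the medians over all 16862 genes lie within 0.03 of 0.

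Cdkn2a (chr4:89274471-89294653, minus strand) and Cdkn2b (chr4:89306299-89311039, minus strand) were low in 1 line, MCA-943, and high in the other 4. Cdkn2a had 5.42, 8.54, 28.1 and 30.02 CPM in the 4 tumors of MCA-943. It ran from 349.1 to 646.5 CPM (median 410.7) in MCA-948, from 430.7 to 622.0 CPM (median 508.3) in MCA-969 and from 572.8 to 677.7 CPM (median 642.0) in MCA-970, and the 4 tumors of MCA-972 had 415.4, 417.7, 476.3 and 529.1 CPM. All 4 tumors of MCA-943 lay below all 26 other tumors. Cdkn2b had 0.779, 1.44, 2.44 and 3.97 CPM in MCA-943 and ran from 38.4 to 89.2 CPM in the other 26 tumors. Both genes ranked these 4 tumors in the same order, W-2G, a-1G, a-1D and a-R.

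The log2 fold change of Cdkn2a in MCA-943 was -4.61 ± 0.33 against MCA-948, -4.66 ± 0.35 against MCA-972, -4.798 ± 0.33 against MCA-969 and -5.12 ± 0.34 against MCA-970, with adjusted p of at most 5.51e-12. For Cdkn2b the values were -4.43 ± 0.26, -4.72 ± 0.28, -4.795 ± 0.27 and -5.21 ± 0.28 in the same order of lines, with adjusted p of at most 4.51e-14. Between tumors of run 3, MCA-943 was below MCA-948 by a log2 fold change of -4.49 for Cdkn2a and -4.37 for Cdkn2b. None of the other 6 pairs of lines was called for either gene. The largest of them were MCA-970 over MCA-948, 0.51 ± 0.22 for Cdkn2a (adjusted p = 0.0454) and 0.78 ± 0.17 for Cdkn2b (adjusted p = 2.17e-04). Per kb of exon, Cdkn2a was at 379.2 to 538.5 CPM in these 4 lines and Cdkn2b at 34.3 to 59.0 CPM. Counts were made per gene, so transcripts of p16Ink4a and Arf could not be told apart. In MCA-943 the endothelial markers summed to 55.1, 73.0, 53.7 and 107.0 CPM and the leukocyte markers to 100.1, 19.8, 117.3 and 21.4 CPM, in the order of rising Cdkn2a given above, and the part of host RNA in the low level was not tested.

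The 250 bases before both RefSeq starts of Cdkn2a and that of Cdkn2b are shown because both genes were low in MCA-943. The first Cdkn2a window (chr4:89294620-89294869, minus strand) lies before the distal first exon, from which Arf is made, and holds 78.4% G and C, with GGGCGG at 2 places and the E2F motif TTTCCCGC at 1 (0.895% of promoters), in capitals. The second (chr4:89282193-89282442, minus strand) lies inside the gene before the first exon of p16Ink4a, and the Cdkn2b window is chr4:89311033-89311282 on the minus strand. Neither of these held any of the motifs searched.
Cdkn2a, distal start: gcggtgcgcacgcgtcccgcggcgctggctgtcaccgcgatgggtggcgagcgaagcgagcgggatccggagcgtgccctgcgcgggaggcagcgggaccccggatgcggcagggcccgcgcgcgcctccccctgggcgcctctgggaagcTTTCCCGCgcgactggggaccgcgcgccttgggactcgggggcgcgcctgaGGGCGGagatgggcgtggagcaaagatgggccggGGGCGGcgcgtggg
Cdkn2a, proximal start: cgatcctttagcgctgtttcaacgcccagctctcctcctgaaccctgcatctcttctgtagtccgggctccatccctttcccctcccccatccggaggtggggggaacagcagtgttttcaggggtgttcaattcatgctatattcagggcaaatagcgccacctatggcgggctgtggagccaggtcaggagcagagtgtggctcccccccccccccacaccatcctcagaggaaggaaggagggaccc
Cdkn2b: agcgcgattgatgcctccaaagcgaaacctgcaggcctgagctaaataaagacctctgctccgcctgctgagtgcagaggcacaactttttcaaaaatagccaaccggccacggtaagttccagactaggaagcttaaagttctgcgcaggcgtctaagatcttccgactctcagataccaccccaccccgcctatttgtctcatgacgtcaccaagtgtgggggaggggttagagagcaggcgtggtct

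The genes around the locus were split by side. Within 1 Mb of Cdkn2a, 11 other genes passed the filter, with distances taken between gene midpoints. On the side of Cdkn2b, Gm12609 at 106.4 kb, Gm12610 at 158.1 kb and Dmrta1, a transcription factor gene at 402.5 kb, were low in MCA-943 as well. Gm12610 had 0 counts in all 4 tumors of MCA-943, where 3 counts per library would be 0.0906 CPM on average, and 0.600 to 0.924 CPM in the other lines, at least 6.62-fold higher. Gm12609 had 0.0123 CPM in MCA-943 and 0.390 to 0.668 CPM elsewhere, and Dmrta1 had 0.209 ± 0.016 CPM against 0.890 to 2.44 CPM. On the other side, Mtap, a methylthioadenosine phosphorylase often lost with this locus in human tumors and 125.5 kb from Cdkn2a, was at 217.4 ± 18.4 CPM in MCA-943 and 163.9 to 226.4 CPM in the other lines. Klhl9 (564.2 kb), a ubiquitin ligase adaptor, was at 92.2 CPM against 62.3 to 93.7 CPM, Wincr1 (217.1 kb) at 5.96 CPM against 3.55 to 11.98 CPM and Gm12602 (170.1 kb) at 4.55 CPM against 2.45 to 8.11 CPM. Mir31 (374.0 kb) was at 0.213 CPM against 0.200 to 0.387 CPM, and Hacd4 (867.0 kb), a fatty acid elongation enzyme, at 46.2 CPM against 14.3 to 55.02 CPM. The gene nearest to Cdkn2a on this side, Gm12606 at 30 kb, was at 2.33 ± 0.25 CPM in MCA-943, at 9.80 to 11.6 CPM in MCA-948, MCA-969 and MCA-970, and lowest in MCA-972, at 0.411 ± 0.194 CPM. The median deviation of all 11 in MCA-943, with Cdkn2b itself counted among them, was -0.27.

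Rb1 (chr14:73183673-73325822, minus strand) had the smallest range of line means after Mdm4 (0.81 on the log2 scale), while its highest tumor was 2.72-fold above its lowest, against 2.66-fold for Mdm2 and 1.96-fold for Mdm4. The 4 tumors of MCA-943 had 20.8, 22.6, 23.2 and 25.9 CPM. All 26 other tumors lay between 9.53 and 17.7 CPM, with line means of 13.3 to 15.01 CPM. MCA-943, the line with low Cdkn2a and Cdkn2b, was thus the highest in Rb1, by 0.62 ± 0.14 to 0.80 ± 0.13 on the log2 scale (edgeR adjusted p of at most 3.98e-04), below the fold threshold. No other pair reached an adjusted p under 0.05. Exons of Rb1 overlap those of Rcbtb2 and Lpar6 on the other strand over 488 and 408 bases, and the strand setting of the counting is not given, so part of these counts may belong to either gene.

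Of 5 other inhibitors of cyclin-dependent kinases, 2 were called in any pair, with 6 calls in 50 tests (12%, against 24.5% of all genes). Cdkn1c, p57, ranged from 72.3 CPM in MCA-948 to 270.6 CPM in MCA-972, a difference of 1.90 on the log2 scale. Cdkn2d had 18.1 CPM in MCA-943 and 8.61 CPM in MCA-969, and Cdkn2c (25.2 to 49.1 CPM) and Cdkn1b, p27 (53.7 to 98.3 CPM), were called in no pair. The list of 20 genes of the Rb family, E2F factors, D and E cyclins and their kinases gave 19 calls in 200 tests (9.5%, against 24.5% of all genes), from 7 genes. Of these 20, 11 (55%) had their highest mean in MCA-948, against 22.7% of all genes. Ccne2, cyclin E2, was at 43.6 CPM in MCA-948 and 16.3 to 23.6 CPM in the other lines. E2f2, an activating E2F factor, was lowest in MCA-970 (1.88 CPM, with 6.45 CPM in MCA-969), E2f5 highest in MCA-970 (50.6 CPM) and Ccnd2, cyclin D2, highest in MCA-969 (281.9 CPM).

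The genes that E2F factors switch on for DNA replication were highest in MCA-948. Of 16 E2F targets, 15 (93.8%) had their highest mean there, against 22.7% of all genes, and their median deviation was 0.45 on the log2 scale. They gave 13 calls in 160 tests (8.12%, against 24.5% of all genes). In all 13 MCA-948 was the higher line: 5 of 16 against MCA-943 (all genes 29.0%), 3 against MCA-969 (20.8%), 3 against MCA-970 (29.4%) and 2 against MCA-972 (26.8%), shares near or below the background. Mybl2 had 65.6 CPM in MCA-948 and 16.2 to 23.9 CPM elsewhere, and Cdc6, which loads the replication helicase, 42.8 CPM and 16.5 to 20.8 CPM. Each was called against all 4 other lines. Rrm2, the ribonucleotide reductase subunit, had 119.1 CPM in MCA-948 and 48.5 to 81.1 CPM elsewhere, and the helicase gene Mcm4 280.2 CPM and 118.4 to 221.9 CPM. In MCA-943, with little Cdkn2a and Cdkn2b, the median deviation of the 16 was -0.25 and none was at its highest (all genes 26.5%). In MCA-970, with the highest means of Cdkn2a and Cdkn2b, the median deviation was -0.23 and none of the 16 was at its highest (all genes 18.6%). A link of Cdkn2a or Cdkn2b to the level of the E2F targets was not tested.

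Myc (chr15:61985391-61990374, plus strand) was high in 2 lines of different sensitivity. In MCA-969 it ran from 734.9 to 2799 CPM (median 906.7), and in MCA-948 from 504.9 to 1625 CPM (median 689.5). The 4 tumors of MCA-943 had 119.9, 164.1, 172.1 and 201.9 CPM, those of MCA-972 had 102.2, 132.5, 132.8 and 299.1 CPM, and MCA-970 ran from 102.9 to 167.7 CPM (median 133.1). No tumor of the first 2 lines overlapped with any of the other 3. MCA-969 was above MCA-970 by 3.30 ± 0.36 (adjusted p = 6.63e-09), above MCA-943 by 2.99 ± 0.42 (adjusted p = 4.81e-07) and above MCA-972 by 2.98 ± 0.42 (adjusted p = 7.79e-07). Against MCA-948, the log2 fold changes of MCA-970, MCA-943 and MCA-972 were -2.62 ± 0.34, -2.31 ± 0.40 and -2.29 ± 0.40 (adjusted p of at most 1.36e-05). Among the 3 low lines no pair was called (adjusted p of at least 0.491), and MCA-969 over MCA-948 was at 0.68 ± 0.29 (adjusted p = 0.0432). Within both high lines the spread between tumors was wide. The 2 MCA-948 tumors of run 2, a-2G and a-R, had 1191 and 1625 CPM, whereas the 6 of run 3 had 504.9 to 738.3 CPM. In MCA-969 the highest tumors were WR of run 1 (2799 CPM) and W-2D of run 2 (2317 CPM).

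Pvt1, a long noncoding RNA gene whose midpoint lies 220.2 kb from that of Myc, was high in the same lines. Its means were 601.6 CPM in MCA-969 and 243.0 CPM in MCA-948, and 25, 18.03 and 13.7 CPM in MCA-943, MCA-972 and MCA-970. It was called in 7 of 10 pairs, up to 5.46 on the log2 scale for MCA-969 over MCA-970. The only other genes past the filter within 1 Mb of Myc, H2afy3 and Tsg101-ps, were named after their values had been seen. H2afy3 at 230.9 kb was at 0.346 ± 0.526 CPM in MCA-948 and 0.346 ± 0.437 CPM in MCA-969, with SDs above the means. Its means in the other lines were at most 0.0561 CPM. Tsg101-ps at 993.4 kb was at 0.471 to 0.753 CPM in all 5 lines.

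**Figure D5:**
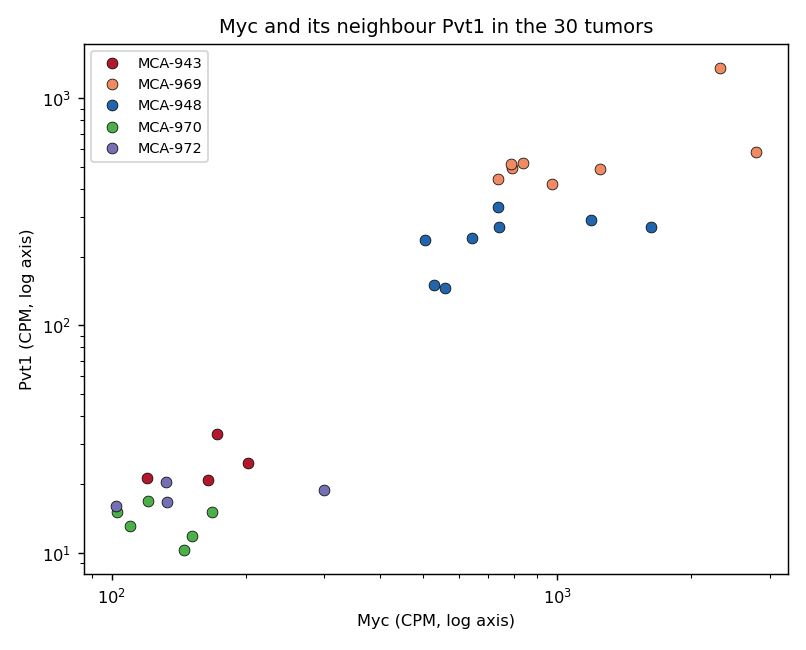
Level of Pvt1 against level of Myc (both in CPM on log axes), 1 point per tumor, coloured by line. The 16 tumors of MCA-948 and MCA-969 lie apart from the other 14 on both axes, with at least 504.9 CPM of Myc.

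The relatives of Myc followed other orders. The 10 genes of the Myc family and its partners gave 19 calls in 100 tests, against 24.5% of all genes. Mycl was highest in MCA-948 (14.2 CPM, with 0.795 CPM in MCA-972), and Mycn highest in MCA-943 (7.52 CPM, with 1.78 CPM in MCA-948). The antagonists Mxd4 and Mxd1 were lowest in MCA-948 (36.4 CPM) and in MCA-943 (11.1 CPM). The 14 target genes of Myc gave 38 calls in 140 tests (27.1%, near the 24.5% of all genes), from 11 genes, and all 14 had their highest mean in a line with high Myc, 10 in MCA-948 (71.4%, against 22.7% of all genes) and 4 in MCA-969 (28.6%, against 14.6%). Pvt1 is 1 of the 14. Between MCA-970 and MCA-948, 8 of 14 were called (all genes 29.4%), all higher in MCA-948, with a median of -1.003 for MCA-970 minus MCA-948. Odc1, of polyamine synthesis, had a median of 700.0 CPM in MCA-969 and 641.3 CPM in MCA-948, and means of 217.5 to 441.0 CPM elsewhere. Its highest tumor in MCA-969 had 3626 CPM, and the mean of that line was 1150 ± 1056 CPM (SD, n = 8). Nolc1, a nucleolar protein, was at 308.8 and 209.0 CPM in MCA-948 and MCA-969 and 85.6 to 143.6 CPM elsewhere. Cad, of pyrimidine synthesis, was highest in MCA-948 (305.4 CPM) but at 190.5 CPM in MCA-969 and 211.4 CPM in MCA-972.

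With regard to sensitivity to NK1.1+ cells, none of the 10 genes was called in 1 direction in all 6 pairs that set a non-sensitive line against a sensitive one, against 0.878% of all genes. With no fold threshold 2 of the 10 passed, Mdm4 and Ccng1, against 4.15% of all genes. The line means of the 2 groups did not overlap for 4 of the 10, Trp53, Mdm4, Ccng1 and Trp53inp1, each higher in both non-sensitive lines, against 16.7% of all genes without overlap in either direction. The line is the unit here, and a two-sided exact permutation test of 2 lines against 3 cannot give a p below 0.1. That value was reached for Mdm4, with a difference of 0.39 on the log2 scale, and for Ccng1, with 0.94. For Trp53 the difference was 2.97 (exact permutation p = 0.2), and for Trp53inp1 it was 0.97 (exact permutation p = 0.3). Cdkn2a and Cdkn2b were low in a non-sensitive line, and Myc was high in 1 line of each group. Without the 2 MCA-969 tumors whose label gives the opposite sensitivity, 32 of the 100 tests were called, as with them.

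Tumors with the title letters W and a were compared within the 4 lines that hold both, over 26 tumors. None of the 10 genes reached an adjusted p under 0.05 with edgeR, nor with DESeq2 or limma-voom at the threshold for a call, against 0.272% of all genes. At an unadjusted p under 0.05, 1 of the 10 passed, against 7.35% of all genes. This was Trp53, whose log2 difference of W from a was -0.46 ± 0.18 over 26 tumors (edgeR adjusted p = 0.528). The mean difference of W from a was -1.34 in MCA-948, -0.06 in MCA-969 and -0.32 in MCA-970, and these did not differ at the threshold (edgeR interaction, adjusted p = 0.242). The tumors of MCA-948 with the most endothelial transcripts all carried the letter a.

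For each of the 10 genes the genes with the most similar levels over the 30 tumors were listed by Pearson r of log2 CPM, which describes these tumors and mainly follows the 5 lines, since tumors of a line share their origin. Gfpt2, an enzyme of hexosamine synthesis, was closest to Trp53 (r = 0.98), with 2.00 CPM in MCA-948, 21.4 CPM in MCA-970 and 50.9 to 69.5 CPM in the other lines, followed by Stt3b (0.96), of N-glycosylation. Cdkn2b was closest to Cdkn2a (0.99), followed by Gm12610 (0.95), and the closest to Cdkn2b were Cdkn2a and Gm12609 (0.96). Pvt1 (0.95) and Gm4610 (0.93) were closest to Myc. The closest to Cdkn1a were Nr4a1 (0.93) and Cebpb (0.92), both induced early after stimulation of cells. Those of Mdm2 were Dyrk3 (0.94) and the keratin gene Krt18 (0.92), those of Trp53inp1 Crebl2 (0.93) and Rab3il1 (0.92), and those of Ccng1 Zfp771 (0.92) and Hmgcll1 (0.91). Mdm4 (Scyl3 0.86, Vamp1 0.84) and Rb1 (Tmem168 0.865, Pgpep1 0.84), with the smallest ranges of line means, had the weakest likeness.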

How the data were processed

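RNA was sequenced from 30 tumors, and the values deposited by the authors are raw read counts per gene, with no normalization. Per the labels and the study's methods, reads were aligned with STAR 2.5.3a to GRCm38 and counted with featureCounts (version 1.5.2 in the submitters' processing notes), and the column names state removal of duplicates by molecular identifiers. The strand setting is not given in the sources used here. The table holds 48440 genes, 48058 of them named by GENCODE M21. Counts of the 16862 genes past filterByExpr were normalized by TMM and fitted with edgeR 4.0.16 (quasi-likelihood, robust) by line over all 30 tumors, with Benjamini-Hochberg adjustment over all genes. DESeq2 1.42.0, limma-voom (limma 3.58.1), other filters, covariates and each tumor left out were alternatives, and the code was tested on simulated data. Log2 CPM had a prior count of 2. Named genes were the 10 genes, the 4 with the widest range of line means in each list, all within 1 Mb of Cdkn2a, and the 2 most similar to each of the 10. Neighbours of Trp53 and Myc fall outside this rule. Genes and lists were chosen with earlier results of these data known. The samples are separate tumors of a line, so p-values set differences between these 5 lines against the spread between tumors within a line. They do not cover the spread between primary tumors.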

Additional observations from a re-analysis of the deposited data

Results flagged for a closer look

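Ccng1 in tumor a-1 of MCA-972 was at 56.3 CPM, away from the other 3 tumors of the line, which lay between 65.3 and 65.6 CPM. The gap to the nearest tumor was 0.976 of the range of the line. It was the only one of 50 sets of a gene and a line with 4 to 8 tumors in which the highest or lowest tumor stood apart, and chance alone sets apart about 1 in 20.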

How the results depend on the processing

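The count of 32 calls was 67 with no fold threshold and 21 with a threshold of 2 on the log2 scale, and that of 197 calls among the 108 other pathway genes was 696 and 50. With no fold threshold 2 genes, in place of 0, passed in all 6 pairs that set a non-sensitive line against a sensitive one. Among genes within 500 kb in place of 1 Mb, the median deviation around Cdkn2a and around Cdkn2b in MCA-943 was -0.77, against -0.27, and around Myc in MCA-969 it was 2.21, against 1.21. Cdkn2a and Cdkn2b were each counted among the neighbours of the other. Under the other alternatives the calls numbered 30 to 35, and leaving out each tumor gave 31 to 33 (189 to 202 for the other pathway genes). The count of genes that differed among lines stayed at 10, that of genes called in all 6 such pairs at 0, that of line means without overlap at 4 and that of calls between title letters at 0 in these fits. No log2 fold change of the 10 genes turned its sign among called tests. The codes in the titles did not pair the tumors (29 pairs with the same code, correlations of -0.43 to 0.41, median 0.02). With this code as a replicate block, 31 tests were called (180 for the other pathway genes), and the call lost was Ccng1 between MCA-943 and MCA-948 (0.97). With the run as a covariate, 4 calls were lost and 7 gained: Cdkn1a 1.02 and 1.47 for MCA-943 over MCA-948 and MCA-972, Ccng1 1.17 for MCA-943 over MCA-972, Trp53inp1 1.09, 1.98 and 1.37 for MCA-943 over MCA-970, MCA-972 and MCA-969, and Myc 1.49 for MCA-943 over MCA-970. The lost call not given above was Ccng1 0.89 for MCA-969 over MCA-970. The cause was not tested. The leukocyte and endothelial covariates and the fit without both MCA-969 tumors of opposite label were chosen after seeing the data. Runs hold few lines each, and MCA-943 shares a run with MCA-948 only. Genes under 1 CPM rest on few reads per tumor.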
